A study of Mus musculus with 2 samples.

Results

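The regions described here are DNase I hypersensitive sites of mouse spleen that lie mainly in repeat sequence, taken as peaks with more than 50% of their bases soft-masked (written in lower case) in the mm10 reference. In the stricter of the deposited peak lists of each library, 1746 of 48286 peaks of replicate 1 (3.62%) and 862 of 28837 peaks of replicate 2 (2.99%) met this rule, a mean of 3.30% ± 0.443 (SD, n = 2). Soft-masked bases made up 36.4% of the sequenced bases of the mm10 chromosomes, and 30.2% of 105911 genome windows of 200 bases were mostly masked, so repeats were a far smaller share of the peaks than of the genome.

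DNase-seq finds stretches of chromatin that the nuclease DNase I can cut in nuclei, which in most tissues are promoters, enhancers and insulators. Both libraries came from spleens of male B6CASTF1/J mice aged 14 days, a first-generation cross of C57BL/6J and CAST/EiJ, and the labels list no treatment. Replicate 1 was made from material of 3 males and replicate 2 from 1 male, and both are listed under the same donor entry. No cell type was isolated, so each value is a mixture over the cells of the organ, and the 2 parental alleles were not separated in the files. With 1 group of 2 libraries there is no contrast and no test: values are given per library, and peaks of 1 library are not replicates of each other.

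Repeats are copies left by transposable elements, together with arrays of short tandem units. Most copies are held in closed, DNA-methylated chromatin, and the satellite arrays beside mouse centromeres are a classic example of condensed heterochromatin. Some copies nevertheless carry binding sequences for transcription factors, and in mouse the short interspersed element B2 is known for carrying sequences bound by CTCF, the zinc-finger protein that anchors chromatin loops and insulates domains. The mask used here holds no repeat names, so the peaks are described by their letters and not by family.

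The letters that shared peaks in repeats most often had in common resembled a CTCF site. Among all 9-base words, CAGAAGAGG was in more of the repeat peaks found in both libraries than any other, in a mean of 36% of them. This word lies inside a 12-base core that differs from the usual CTCF consensus at 1 position, where the core has an A in place of the usual pyrimidine; it is called the CTCF-type core here. The word and the core were chosen after the peaks' sequences were seen, so their frequency in the chosen peaks is a description. Of the 5 strongest shared peaks with the core, 4 follow, from mm10, 5′ to 3′ on the strand that reads as the core, with the core in capitals.
chr2:32487201-32487400, minus strand: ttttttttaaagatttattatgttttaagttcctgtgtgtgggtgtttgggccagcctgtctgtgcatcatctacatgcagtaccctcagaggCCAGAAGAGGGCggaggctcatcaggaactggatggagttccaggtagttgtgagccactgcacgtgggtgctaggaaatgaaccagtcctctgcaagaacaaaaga
chr1:131613481-131613640, plus strand: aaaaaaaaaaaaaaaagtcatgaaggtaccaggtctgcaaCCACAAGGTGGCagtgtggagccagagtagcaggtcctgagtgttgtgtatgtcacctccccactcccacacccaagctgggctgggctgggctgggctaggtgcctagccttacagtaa
chr4:11166621-11166820, minus strand: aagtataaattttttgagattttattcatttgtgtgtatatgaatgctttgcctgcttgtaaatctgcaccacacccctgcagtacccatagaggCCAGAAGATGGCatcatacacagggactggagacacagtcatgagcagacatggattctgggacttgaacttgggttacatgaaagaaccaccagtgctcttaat
chr10:93070641-93070800, plus strand: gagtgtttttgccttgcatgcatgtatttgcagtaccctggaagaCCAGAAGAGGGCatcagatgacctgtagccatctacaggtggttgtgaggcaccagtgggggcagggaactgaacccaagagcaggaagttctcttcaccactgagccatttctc
The peak on chromosome 2 was intergenic, 35756 bases from the start of Slc25a25, and had a signal of 6.22 in replicate 1 and 5.12 in replicate 2. The peak on chromosome 1 had 6.08 and 4.49. The peak on chromosome 4 lay in an intron of Trp53inp1, a gene induced by p53, with 4.83 and 3.97. The peak on chromosome 10 was 390 bases from the start of Cfap54, a gene for a cilium protein, with 5.55 and 1.93. Signal is the deposited value of a peak on a scale that the sources used here do not name, and shared peaks are ranked by its mean over both libraries; all 4 peaks had the higher value in replicate 1, as did 88.6% of all shared pairs of peaks. None of the 4 peaks held a 36-base word that occurs again in mm10.

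The core was in a far larger share of repeat peaks than of other peaks. In replicate 1 it was present in the central 150 bases of 219 of 557 repeat peaks found in both libraries (39.3%). Of other shared peaks, 529 of 25076 held it there (2.11%). In replicate 2 it was present in 231 of 572 (40.4%) against 515 of 25121 (2.05%). By count, more of the shared peaks with the core were thus other peaks. Of other peaks away from start sites, 3.14% and 3.97% held the core. Of mostly masked genome windows, 0.996% held it. The spelling CCAGAAGAGGGC made up 165 of 223 core matches in shared repeat peaks of replicate 1 (74.0%) and 179 of 232 in replicate 2 (77.2%), but 25.2% and 23.3% of the matches in other shared peaks. The letters beside the core were also alike from copy to copy: the base 12 positions before it was T in 91.9% of copies in replicate 1 and in 92.2% in replicate 2, and the base 6 positions after it was A in 85.7% and 86.6%. The usual CTCF consensus was less frequent in repeat peaks, with 5.21% and 4.55% of shared repeat peaks against 9.18% and 9.22% of other shared peaks. Peaks holding either form were 44.7% and 44.1% of shared repeat peaks and 11.5% and 11.3% of other shared peaks.

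Most copies of the core in repeats were not in a peak. Masked sequence of the 21 chromosomes held 55156 copies, of which 853 (1.55%) lay in a peak of replicate 1, 401 (0.727%) in a peak of replicate 2 and 383 (0.694%) in a peak of both. Outside masked sequence there were 4018 copies, of which 16.2% lay in a peak of replicate 1 and 9.63% in a peak of replicate 2. For the usual CTCF consensus the shares were 12.2% and 6.85% of 2600 masked copies, and 32.9% and 21.3% of 10519 copies outside masked sequence. For both forms, and in each library, a copy in a repeat was in a peak less often than a copy outside repeats.

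Where the core was in a repeat peak it sat at the centre and under a footprint. Footprints are short protected stretches inside a hypersensitive site, as deposited for each library. In shared repeat peaks the median distance of the core from the peak centre was 10 bases in replicate 1 and 6.50 bases in replicate 2. A footprint overlapped 219 of 223 cores (98.2%) in replicate 1 and 231 of 232 (99.6%) in replicate 2, while footprints covered 29.8% and 32.7% of all bases of these peaks. A core counted as overlapped when any of its bases was covered, so the share of cores and the share of bases are unlike measures. Of the cores in shared repeat peaks, 95.1% and 96.6% were themselves masked. The same was seen for the core in other shared peaks, with a footprint on 96.6% and 97.7%.

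**Figure D1:**
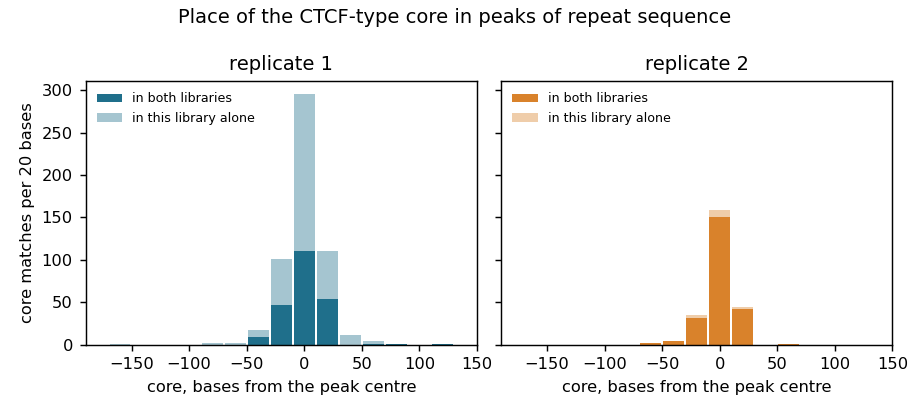
Distance of the CTCF-type core from the centre of peaks in repeat sequence (x axis, bases) against the number of core matches per 20 bases (y axis), for replicate 1 on the left and replicate 2 on the right; dark bars are peaks found in both libraries and pale bars peaks of that library alone. Matches gather at the centre in both libraries, and 98.7% of those in shared peaks lie within 50 bases of it.

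The core was picked from repeat peaks found in both libraries, so the next shares describe that choice and support nothing. A peak counts as found again when it overlaps a peak of the other library's stricter list by at least 1 base. In replicate 1, 221 of 544 repeat peaks with the core (40.6%) and 336 of 1202 without it (28%) were found again. In replicate 2 these were 230 of 243 (94.7%) and 342 of 619 (55.3%). The median signal differed less, with 1.01 against 0.932 in replicate 1 and 1.27 against 0.838 in replicate 2. A footprint was present in 98.9% and 99.6% of repeat peaks with the core, against 88.3% and 74.8% of those without.

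**Figure D2:**
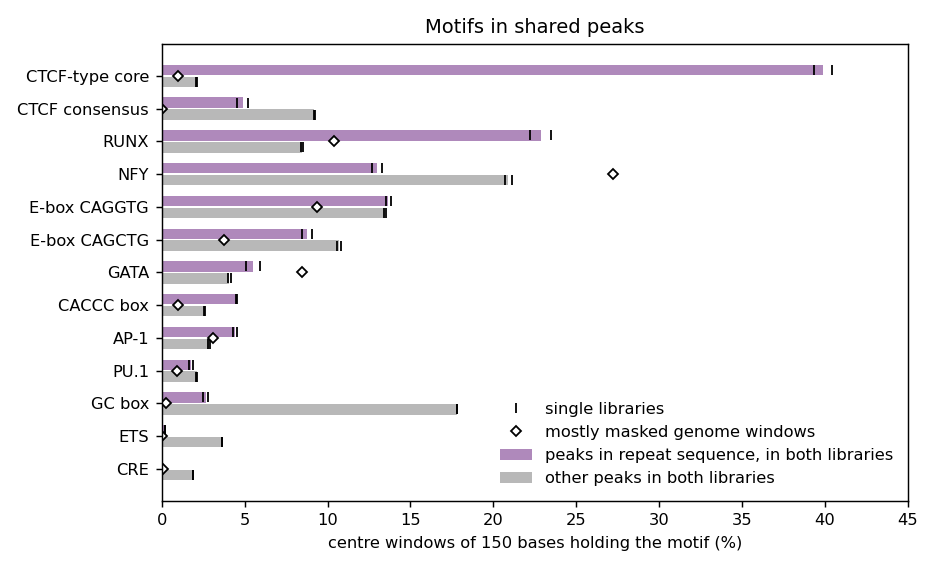
Share of shared peaks whose central 150 bases hold each motif (x axis, percent), for repeat peaks (purple bars) and other peaks (grey bars); bars are means of the 2 libraries, ticks the single libraries and diamonds mostly masked genome windows. The CTCF-type core at about 40% stands above all 12 other motifs in repeat peaks, and GC box, ETS and CRE are short bars there. The core was picked from these same repeat peaks and the other motifs were not, so its rank describes that choice.

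Of the other motifs searched, the RUNX word TGTGGT (either strand) was the commonest in repeat peaks. RUNX factors are regulators of blood cell development. The word was present in 377 of 1746 repeat peaks of replicate 1 and 186 of 862 of replicate 2, 21.6% in both, against 11.9% and 8.61% of other peaks, 16.0% and 13.4% of other peaks away from start sites, and 10.4% of mostly masked genome windows. Many of these peaks were related copies: in the largest group joined by alignment, described below, 177 of 636 sites held the word. Among the RUNX words in shared repeat peaks, 40.5% in replicate 1 and 45.5% in replicate 2 overlapped a footprint, against 33.4% and 33.3% in other shared peaks. Footprints covered 29.8% and 32.7% of the bases of shared repeat peaks, and 26.2% and 24.3% of those of other shared peaks. A word counted as overlapped when any of its bases was covered. A share of words can therefore lie above a share of bases with no excess of footprints on the word. In repeat peaks of 1 library alone, a footprint overlapped 21.8% of RUNX words in replicate 1 and 4.48% in replicate 2. Footprints covered 19.0% and 8.85% of the bases there. The strongest shared repeat peak with the word lay in an exon of the antisense RNA gene Gm10814, 2344 bases from the start of the calpain gene Capn1, with a signal of 6.40 and 5.88; its letters follow with the RUNX word in capitals.
chr19:6018241-6018380, plus strand: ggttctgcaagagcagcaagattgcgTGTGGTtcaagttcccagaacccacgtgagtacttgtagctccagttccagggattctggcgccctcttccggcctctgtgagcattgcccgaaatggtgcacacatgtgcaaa
The CACCC box CCACACCC, the kind of sequence bound by Kruppel-like factors, was present in 6.53% of repeat peaks of replicate 1 and 4.06% of replicate 2, against 3.42% and 2.93% of other peaks more than 1000 bases from a coding start site. These distal peaks are the comparison for the next motifs too, because most repeat peaks were distal. Related copies were also among the repeat peaks with CCACACCC: in the next largest group joined by alignment, 61 of 127 sites held it. The GATA word AGATAA, bound by the blood factors GATA1 and GATA2, was in 7.45% and 3.83% of repeat peaks against 9.20% and 6.27% of distal others. The E-box CAGCTG was in 8.25% and 8.12% against 16.4% and 13.8%, and the E-box CAGGTG in 13.6% and 14.0% against 17.7% and 19.0%. The GATA word and both E-boxes were less frequent in repeat peaks than in distal others in both libraries. Mostly masked genome windows held CCACACCC in 0.971%, AGATAA in 8.49%, CAGCTG in 3.76% and CAGGTG in 9.36%. The NFY word CCAAT, in 15.5% and 15.9% against 14.9% and 15.9%, and the AP-1 word TGANTCA, in 5.33% and 3.94% against 5.29% and 4.32%, showed no difference from distal others in 1 direction. Mostly masked genome windows held CCAAT in 27.2%, above its share of repeat peaks, and TGANTCA in 3.12%. Motifs typical of promoters were less frequent in repeat peaks than in distal others. The GC box GGGCGGGG was in 2.75% and 1.97% against 3.90% and 5.10%, the ETS word CCGGAAGT in 0.286% and 0.116% against 0.709% and 0.673%, and the cAMP response element TGACGTCA in none of either list against 0.479% and 0.612%. Other searched motifs, all read on both strands, were PU.1 GAGGAAGT, IRF GAAANNGAA, and NRF1, REST and the RNA polymerase III B box by consensus.

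Repeat peaks were mostly away from promoters. The start site of a protein-coding gene lay within 1000 bases of 12.4% of them in replicate 1 and 12.1% in replicate 2, against 42.8% and 57.2% of all peaks of the list. Of repeat peaks, 43.9% and 37.6% were in introns and 40.7% and 47.2% between genes, against 27.4% and 17.7%, and 23.6% and 19.1%, of other peaks. Their median GC content was 50.6% and 51.4%, against 56.4% and 60.9% in other peaks and 41.0% in mostly masked genome windows. Chromosome Y held 0.687% and 2.55% of repeat peaks against 0.0301% and 0.0643% of other peaks, and chromosome X 4.70% and 6.15% against 2.46% and 2.63%; 46.8% of the sequenced bases of X and 96.3% of those of Y were masked.

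**Figure D3:**
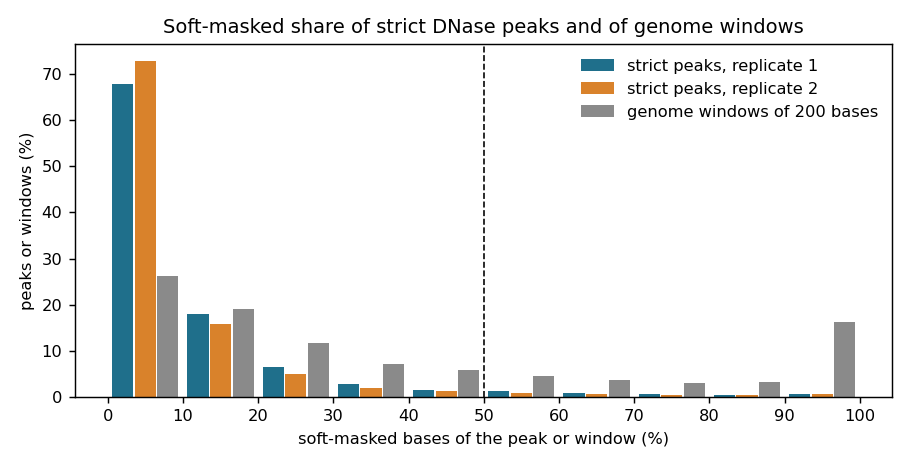
Distribution of the soft-masked share (x axis, percent, bins of 10) over peaks of replicate 1 (blue), peaks of replicate 2 (orange) and genome windows of 200 bases (grey), each as percent of its set (y axis); the dashed line is the threshold of 50%. Bins of peaks fall steadily to the threshold, whereas 16.2% of genome windows are in the last bin.

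The threshold lay inside a continuous distribution. The 3 shared peaks just above it had masked shares of 50.3%, 50.5% and 50.5%, with signals of 1.73, 0.529 and 0.646 in replicate 1 and 1.72, 0.911 and 0.521 in replicate 2. The 3 just below it were at 50%, with 1.99, 2.90 and 1.42 in replicate 1 and 1.09, 2.37 and 1.17 in replicate 2.

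Fewer repeat peaks than other peaks were found again. In replicate 1, 557 of 1746 (31.9%) overlapped a peak of replicate 2, against 53.1% of all its peaks. In replicate 2, 572 of 862 (66.4%) overlapped a peak of replicate 1, against 89.1% of all its peaks. Repeat peaks were also weaker, with a median signal of 0.957 in replicate 1 and 1.01 in replicate 2, against 1.53 and 1.83 in other peaks. All peaks of a library were therefore split by signal into 4 classes of like size. In the lowest class of replicate 1, 12.6% of repeat peaks and 10.1% of other peaks were found again, in the next 29.1% and 32.1%, in the third 67.0% and 71.8%, and in the highest 100% and 98.8%. In replicate 2 the lowest class differed, with 42.8% against 65.2%, while the classes above it had 92.7% against 95%, 98.3% against 98.4%, and 100% against 99.5%. The median signals in that lowest class were 0.525 and 0.805. Away from start sites, 31.1% of repeat peaks and 38.3% of others were found again in replicate 1, and 64.1% and 86.4% in replicate 2. There, the classes of replicate 1 had 13.4% against 8.19%, 28.1% against 26.8%, 66.7% against 65.4% and 100% against 97.9%. The lowest class of replicate 2 had 40.1% against 63.6% and the next 92.6% against 97.8%. The list of replicate 1, the longer one, was also shortened by signal to the length of that of replicate 2. The order of the libraries then turned, with 60.9% of repeat peaks found again in replicate 1 and 43.6% in replicate 2. No share over all peaks at that length is given here, so these values are not read as particular to repeat peaks.

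Over whole lists, the share of repeat peaks with a footprint lay above that of all peaks in replicate 1 and below it in replicate 2. At least 1 footprint overlapped 91.6% of repeat peaks in replicate 1, against 89.5% of all peaks, and 81.8% in replicate 2, against 88.4%. Within the classes by signal the repeat peaks were at or above the others, from the lowest class up with 83.5% against 76.0%, 96.4% against 86.3% and 100% against 94.9% in replicate 1, and 67.4% against 67.1%, 98.8% against 88.1% and 100% against 98.2% in replicate 2. Away from start sites the lowest class had 85.7% against 84.6% in replicate 1 and 66.7% against 77.5% in replicate 2. In shared repeat peaks the values were 96.6% and 96.9%. In repeat peaks of 1 library alone they were 89.2% for replicate 1 and 52.1% for replicate 2, whose 290 such peaks had a median signal of 0.244. Other peaks found in replicate 2 alone were also low, at 45.9%. Within shared repeat peaks footprints covered 31.5% and 35.4% of masked bases and 25.8% and 26.1% of unmasked bases.

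**Figure D4:**
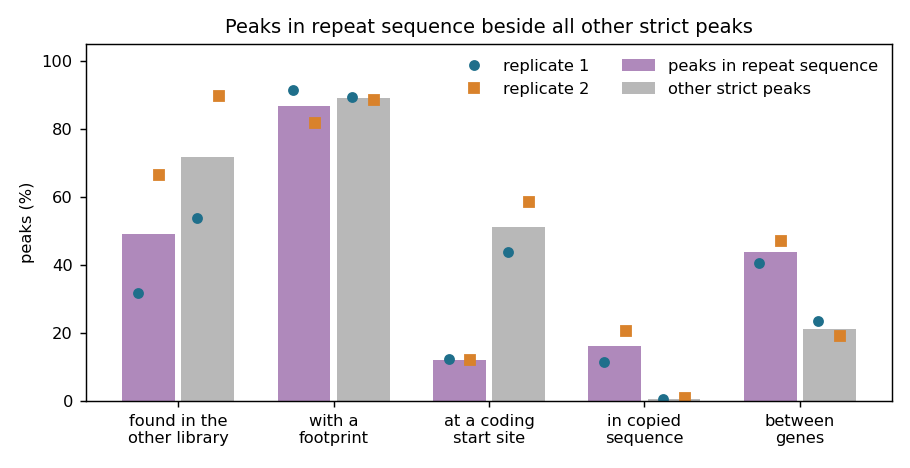
Repeat peaks (purple bars) beside all other peaks of the stricter lists (grey bars) in 5 measures, as percent of peaks (y axis); bars are means of the 2 libraries, circles replicate 1 and squares replicate 2. In both libraries repeat peaks were less often found again, less often at a coding start site and more often in copied sequence, and the footprint values of the libraries overlap.

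Sequence that occurs more than once bears on how short reads can be placed; no label or file here says how such reads were treated. A peak is called copied when more than 50% of its 36-base words occur again in mm10. Of repeat peaks, 11.6% in replicate 1 and 20.8% in replicate 2 were copied, against 1.12% and 1.53% of all peaks, while 47.4% of mostly masked genome windows were. Of repeat peaks found in replicate 2 alone, 30.7% were copied, against 9.50% of those in replicate 1 alone. At least 1 repeated word was present in 48.1% and 53.0% of repeat peaks, so about as many held none. Of the 892 repeat peaks of replicate 1 with no repeated word 31.4% were found again, and of the 397 of replicate 2 78.1% were.

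The strongest repeat peaks were copied sequence near the first sequenced bases of chromosome 9. In mm10 most chromosomes, among them chromosome 9, open with an unsequenced block on the centromere side, and their sequence starts near base 3000000. The first of the peaks printed below had a signal of 24.3 in replicate 1 and 66.7 in replicate 2, the highest of any repeat peak in either library. The second had 8.69 and 5.03; all of its words were repeated, with a median of 77.5 copies per word. Their GC contents were 38.3% and 36.4%. They are shown because they share letters: the longest run that both hold is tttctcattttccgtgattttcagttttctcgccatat, of 38 bases.
chr9:3019101-3019207, plus strand: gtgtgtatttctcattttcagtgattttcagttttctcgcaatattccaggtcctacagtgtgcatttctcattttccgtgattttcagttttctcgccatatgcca
chr9:3006800-3006920, plus strand: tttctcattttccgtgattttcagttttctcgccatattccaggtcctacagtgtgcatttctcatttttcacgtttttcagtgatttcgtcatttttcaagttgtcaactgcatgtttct
Of the 10 strongest shared repeat peaks, 6 were in this stretch of chromosome 9, all of them within the annotated long noncoding RNA gene Gm26870. The peak at chr9:3002461-3002646 had 2.63 in replicate 1 and 39.3 in replicate 2, and the peak at chr9:3002037-3002220 had 16.7 and 14.0. The libraries thus did not order these peaks alike. In all, 15 peaks of replicate 1 and 16 of replicate 2 lay in the first 100 kb of chromosome 9, every one a repeat peak, and 14 of each were found again.

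A second set, at the start of chromosome 17, was found in replicate 2 alone. The stretch chr17:3002170-3033646 held 49 peaks of replicate 2, of which 28 were repeat peaks. These 28 had signals of 0.122 to 0.342 and a median of 0.207, and no repeat peak of replicate 1 lay there. Away from chromosome starts, stretches of chromosomes 5, 7, 15 and Y also held several repeat peaks of replicate 2 and none of replicate 1. Footprints were present in 7 of the 28, and 10.7% were copied. Across all chromosomes the bases from 3000000 to 3100000 held 28 repeat peaks of replicate 1 (1.60% of its repeat peaks, beside 0.0973% of all its peaks) and 62 of replicate 2 (7.19%, beside 0.350%). Compared with each other, many of these peaks fell into a group of 54 sites, 26 of them on chromosome 17, of which 47 held the RUNX word. In this group 40 sites were in replicate 2 alone, 5 in replicate 1 alone and 9 in both libraries. Its sites were on 5 chromosomes and reached base 64075185, so not all were at a chromosome start. The strongest of the group had signals of 0.747 and 0.870 and follows with the RUNX words, on either strand, in capitals.
chr4:3067781-3068080, plus strand: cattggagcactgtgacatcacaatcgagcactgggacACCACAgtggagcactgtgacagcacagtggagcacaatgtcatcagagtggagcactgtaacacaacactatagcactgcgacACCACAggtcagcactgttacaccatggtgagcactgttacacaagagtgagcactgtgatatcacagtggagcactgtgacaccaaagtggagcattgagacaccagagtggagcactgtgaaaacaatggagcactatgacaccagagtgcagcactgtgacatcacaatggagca
Without the bases from 3000000 to 3100000 the RUNX word was in 21.4% of repeat peaks of replicate 1 and 18.6% of replicate 2.

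Repeat peaks were compared with each other by alignment, joining sites, in chains, that matched with at least 80% identity over at least 80% of the shorter peak. Joining both libraries gave 2110 sites, of which 1073 fell into 65 groups and 1037 matched no other site. The largest group had 636 sites on 21 chromosomes, of which 348 held the CTCF-type core, 177 held the RUNX word and 214 were in both libraries. The next had 127 sites, of which 61 held the CACCC box, 26 held the RUNX word, 1 held the core and 20 were in both libraries. Its strongest member lay in an intron of Mgll, the gene for monoglyceride lipase, at chr6:88783141-88783360 with a signal of 4.45 and 1.74. A group of 21 sites, 17 of them on chromosome 9, had 15 in both libraries and 85.7% copied, and held no core. Tandem units of 1 to 4 bases filled more than 30% of 59 repeat peaks of replicate 1 (3.38%) and 36 of replicate 2 (4.18%), against 0.0430% and 0.0107% of other peaks. Arrays of tandem units are themselves repeats, so the rule that chose the peaks favours them and this contrast is a description. Of shared tandem peaks with the unit AC, chr15:65039361-65039500 was the strongest by the mean of both libraries, with signals of 1.04 and 2.76. In replicate 1 chr14:13960161-13960340 was above it, with 1.38 and 0.952.

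Signal in the 2 libraries was compared over 498 pairs of repeat peaks that were each other's best overlap. The median log2 ratio of replicate 1 to replicate 2 was 0.14 (SD 0.61 over pairs), against 0.58 (SD 0.46) over all 25319 shared pairs, a difference of -0.43. Of repeat pairs 62.4% were higher in replicate 1, against that 88.6% of all pairs. In other pairs away from start sites the median was 0.41. The 93 copied repeat pairs had a median of -0.37 (SD 0.82) and the 405 that were not copied 0.18 (SD 0.50), which lie -0.95 and -0.40 from the median of all pairs. Pairs with the core had 0.11 (SD 0.37) and pairs without it 0.16 (SD 0.74). Of the 207 pairs with the core 204 were not copied, and of the 291 without it 201 were not. The SDs of pairs with and without the core thus cannot be told apart from copied sequence. No source here states that the signal scales of the libraries are comparable, so these values are read relative to all pairs.

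**Figure D5:**
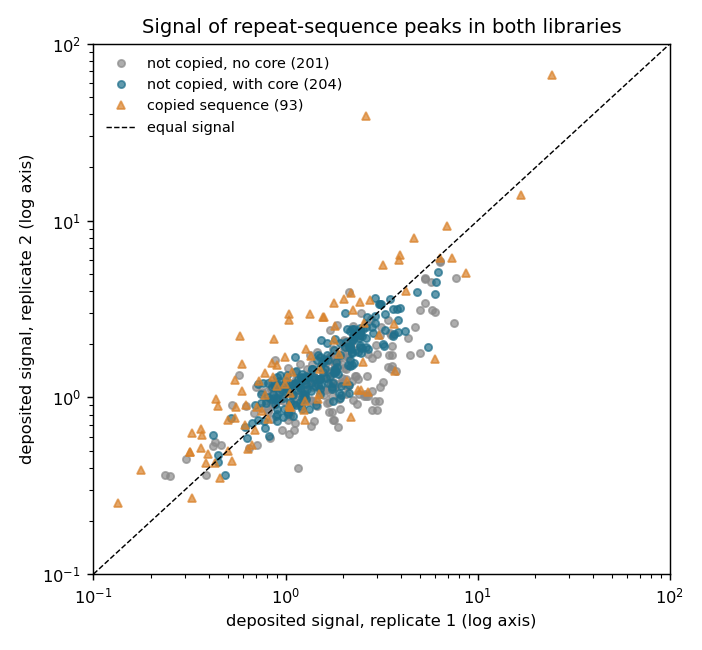
Deposited signal of the 498 shared repeat pairs in replicate 1 (x axis, log) and replicate 2 (y axis, log); triangles are 93 copied pairs, blue circles 204 pairs with the core that are not copied, grey circles 201 others, and the dashed line is equal signal. Copied pairs spread on both sides of the line and include the strongest peaks, and pairs with the core form a narrower band.

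Named genes near shared repeat peaks were few. A shared repeat peak lay within 10 kb of 504 of 21924 protein-coding genes (2.30%). Of 19 erythroid genes, Ank1 of the red cell membrane skeleton, the alpha globin gene Hba-a1 and the transferrin receptor gene Tfrc had one (15.8%). All 19 had some shared peak within that distance, against 63.6% of all protein-coding genes. The peak beside Hba-a1, at chr11:32285081-32285300, was 1270 bases from its start, with signals of 3.56 and 2.25; 28.1% of its words were repeated. Of 16 T cell genes Lck, the kinase that starts T cell receptor signalling, had one, and of 8 megakaryocyte genes Itgb3, a platelet integrin subunit, had one. Both peaks were intronic and both held the core, shown in capitals.
chr4:129549401-129549540 in Lck, plus strand: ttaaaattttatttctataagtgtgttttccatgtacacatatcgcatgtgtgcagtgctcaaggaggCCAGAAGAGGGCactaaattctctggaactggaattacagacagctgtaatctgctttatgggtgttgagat
chr11:104648650-104648799 in Itgb3, plus strand: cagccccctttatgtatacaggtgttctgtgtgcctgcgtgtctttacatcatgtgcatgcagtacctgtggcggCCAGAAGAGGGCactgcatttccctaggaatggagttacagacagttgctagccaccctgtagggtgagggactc
The peak in Lck had signals of 1.41 and 1.28 and the peak in Itgb3 1.62 and 1.29. None of 16 B cell, 12 macrophage, 10 stroma and endothelium, 6 pancreas or 4 liver genes had a shared repeat peak in that distance. Both libraries had a start-site peak for 16 of 19 erythroid, 11 of 16 B cell and 3 of 16 T cell genes. The counts were 4 of 12 for macrophage, 2 of 8 for megakaryocyte and 3 of 10 for stroma and endothelium genes. They were 2 of 6 for pancreas and none of 4 for liver genes. Hba-a1 and Hba-a2 were the erythroid genes without a start-site peak. No such share over all protein-coding genes is given here, so these counts are not read as high or low.

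A few strong repeat peaks were at promoters in sequence with no repeated word. The strongest covered the start of Ldb1, a cofactor of enhancer complexes in red cell precursors, at chr19:46039581-46039800, with a masked share of 60%, a GC content of 69.1% and signals of 7.69 and 4.73. The peak at chr5:100038401-100038580, 289 bases from the start of Hnrnpdl, a gene for an RNA-binding protein, had 6.40 and 5.84. Of peaks in replicate 1 alone the strongest was at chr5:105409221-105409400, with 3.06; the larger list of replicate 2 held it with a signal of 0.919. Of peaks in replicate 2 alone the strongest was at chrX:170021781-170021980, with 2.11; all of its words were repeated, with a median of 6 copies per word.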

How the data were processed

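DNase-seq peaks and footprints of 2 spleen libraries were used, as deposited on mm10. Per the file headers and descriptions that came with the deposited files, peaks and footprints were made for each library by itself; no aligner, caller or version is named there. The deposited peak signal is a value that is never negative, of unstated scale. The deposited false discovery rate of the cut rate, a p-value kind of unit, is not reported here. Each library has a pair of peak lists; the one with fewer total bases was the stricter list. No total read count is given, so depth is unknown and no counting interval is printed.

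Masked bases, words and motifs were read from the soft-masked GRCm38 sequence of RefSeq, whose masking method is not given, over 66 sequences for word copies; genes were those of GENCODE for the same build. Groups were joined with blastn 2.17.0; other steps used Python 3.11.15 and pandas 2.3.3, and the overlap, word and motif steps were tested on simulated data. The members and lists were chosen with earlier results of these data known. The rule for named peaks was the 10 strongest in both libraries, the 5 strongest in each alone, the 5 strongest shared with no repeated word, the strongest near each gene list, of each of the 5 largest groups and for each motif, and 3 on each side of the threshold; not every peak it names is reported here. The CTCF-type core, the genome windows and the stretch from 3000000 to 3100000 were added after seeing the data.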

Additional observations from a re-analysis of the deposited data

How the results depend on the processing

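No paired analysis was possible because the study has 1 group. All values are descriptions with no test. The share of repeat peaks, 3.30% on average, was 9.06% with a threshold of 25%, 1.30% with 75%, 5.66% in the larger lists, 2.54% in equal numbers of strongest peaks, 7.44% when only the central 20 bases decided, and 2.82% without copied sequence, an alternative chosen after seeing the data. The share at start sites, 12.2%, was 6.43% within 500 bases, 17.4% with the starts of every annotated gene and 11.2% with a threshold of 75%. The copied share, 16.2%, was 9.65% with words of 50 bases, 50.6% with any repeated word, 3.90% with all words repeated and 33.0% with a threshold of 75%. The median log2 signal ratio, 0.14, was 0.06 with a threshold of 75%. By library, the share ranged from 2.99% to 3.62%, found-again from 31.9% to 66.4%, start sites from 12.1% to 12.4%, footprints from 81.8% to 91.6% and copied from 11.6% to 20.8%. The signal ratio needs both libraries, so no value without a library exists. Equal numbers of strongest peaks moved the found-again share in opposite ways, from 31.9% to 60.9% in replicate 1 and from 66.4% to 43.6% in replicate 2, which reversed the order of the libraries; its mean went from 49.1% to 52.2%. The mean found-again share under the other alternatives, and the mean footprint share under all run, moved by less than the SD between libraries. The RUNX share, 21.6%, was 16.8% in windows of 100 bases, 23.6% with a threshold of 75% and 20% without the bases from 3000000 to 3100000; the core share, 29.7%, was 26.8% with a threshold of 75%. Depth is unknown, so a peak missing from 1 list may lie under its threshold: the larger list of the other library held 54.2% of repeat peaks of replicate 1 and 71.9% of those of replicate 2.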
